A study of Mus musculus with 6 samples.

Results

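The genes described here were 38 enzymes, enzyme subunits and 1 transporter that make, break down or export ceramides, the sphingolipids that hold the outer layer of the skin together. They were chosen by gene symbol from knowledge of the pathway, and all 38 were found among the 15667 genes of the deposited expression table. All 38 also reached a mean of 1 CPM (counts per 1000000 reads assigned to genes) over the 6 libraries and so were among the 14306 genes tested. RNA was sequenced from ear skin at the site of a tick bite in WT mice with an intact adiponectin gene (Adipo+/+, n = 3) and in KO littermates homozygous for a targeted null allele (Adipo-/-, n = 3). All animals were female, 7 to 8 weeks old and of a mixed B6 and 129 stock, and each had carried 10 Ixodes scapularis nymphs for 48 h before a 3.5 mm punch was taken. The allele is lost from every cell and throughout life. Every library came from bitten skin, so the bite itself was not compared with unbitten skin. The comparison asked whether the transcripts of ceramide metabolism differed between bitten skin of KO and WT mice.

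Ceramides are built in the endoplasmic reticulum. Serine palmitoyltransferase joins serine to a fatty acyl-CoA, a reductase and a ceramide synthase turn the product into dihydroceramide, and a desaturase completes the molecule. Ceramide can then be converted to glucosylceramide, sphingomyelin or ceramide 1-phosphate, can be released again from these by glucosidases and sphingomyelinases, and is cut by ceramidases to sphingosine, the precursor of the signalling lipid sphingosine 1-phosphate. Keratinocytes of the upper epidermis run a special branch in which very long fatty acids are hydroxylated at their end and esterified with linoleate, and the resulting acylceramides are exported to form the water barrier of the stratum corneum. Inherited loss of several genes of this branch causes ichthyosis, a scaling disease of the skin. Adiponectin receptors have been linked to ceramidase activity in other tissues.

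The libraries held between 3403461 and 6590500 reads assigned to genes, as implied by the value of 1 read in each, so that 3 reads corresponded to between 0.455 and 0.881 CPM. Adipoq, the targeted gene (chromosome 16, 23146536 to 23157968, GRCm38/mm10), read 30.5, 63.7 and 49.6 CPM in the WT libraries and 0, 0.560 and 0 CPM in the KO libraries (log2 fold change −6.17 ± 0.41 (SE), limma adjusted p = 0.00322). Markers of the labelled tissue were abundant, with 25974 to 33313 CPM summed over 16 genes of differentiated keratinocytes in WT and 27095 to 42144 CPM in KO. RNA of the hair follicle marker list was uneven among the punches. That list holds mainly hair shaft and inner root sheath genes, and the number of follicles was not measured. The 21 follicle genes summed to 12.6, 18.7 and 25013 CPM in WT 1, WT 2 and WT 3 and to 1959, 9910 and 1014 CPM in KO 1, KO 2 and KO 3, with 15 of them at 0 in WT 1 and 11 at 0 in WT 2, among them the inner root sheath keratin Krt72 and the hair keratin Krt31 in both. WT 1 and WT 2 thus stood apart from the other 4 libraries before any group was compared.

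No member differed between KO and WT mice past the threshold. At a limma adjusted p below 0.05, 0 of the 38 members were called, where 0.014% of all genes tested were called. At an unadjusted p below 0.05 the count was also 0 of 38, where 2.88% of all genes passed. The smallest p-values of the fit belonged to the ceramide synthase gene Cers2, the sphingomyelin synthase gene Sgms2 and the acid sphingomyelinase gene Smpd1, and after adjustment each stood at a limma adjusted p = 0.998. A voom fit on the reads implied by the values also called 0 members, with 0.997 as their lowest adjusted p. That fit called 0.0070% of all genes and missed Adipoq itself (limma voom adjusted p = 0.488), so its count adds little. The 3 KO values lay wholly outside the 3 WT values for 2 members, Sgms2 and Smpd1, or 5.26% of the list, where 7.84% of all genes tested had groups that did not overlap. A log2 fold change above 0 was found for 29 of the 38 members, where 43.3% of all genes tested lay above 0. The median log2 fold change (KO minus WT) was 0.053 over the members, with quartiles at 0.0034 and 0.19, and −0.032 over all genes tested, with quartiles at −0.17 and 0.10. Leaving out KO 2 took the count at the unadjusted threshold to 6, where 4.10% of all genes passed. It took the count of separated members to 12, where 19.2% of all genes were separated. Leaving out any other single library gave at most 1 and 7. Both were reached without WT 3, where 4.97% of all genes passed and 19.3% were separated. Members measured in the same 6 libraries are not independent of one another, and no test was made over the list.

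The count above 0 moved with a marker list. Of the 16 genes of differentiated keratinocytes, 15 had a log2 fold change above 0 (median 0.16, 0 with an unadjusted p below 0.05), and their mean log2(CPM + 0.5) was 9.32, 9.50 and 9.25 in WT 1 to WT 3 and 9.73, 9.10 and 9.90 in KO 1 to KO 3. With that mean as a covariate, 19 of 38 members lay above 0, where 46.0% of all genes did, and the median log2 fold change of the members was −0.00022. In bulk skin, more RNA per keratinocyte and a larger share of keratinocytes cannot be told apart.

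The intervals show what size of difference the 6 libraries allowed. The 95% interval of the log2 fold change lay within 0.5 either way (1.41-fold) for 21 members and within 1 either way (2-fold) for 36. The exceptions were Sptssb, the member of lowest level, and Degs2. Both had a wide spread within a genotype (SD of 1.19 and 1.12 on the log2 scale). Smpd2, with a mean of 12.5 CPM against 12.6 CPM for Degs2, lay within 2-fold. The spread within a genotype was smaller for the members (median SD of 0.21 on the log2 scale) than over all genes tested (0.25). The ratio of the highest to the lowest library had a median of 1.42 over the 37 members without a 0 value and of 1.62 over 14075 genes. These sets were not matched for level. Every member but Sptssb had a mean of at least 12 CPM, while the genes tested went down to 1 CPM.

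**Figure D1:**
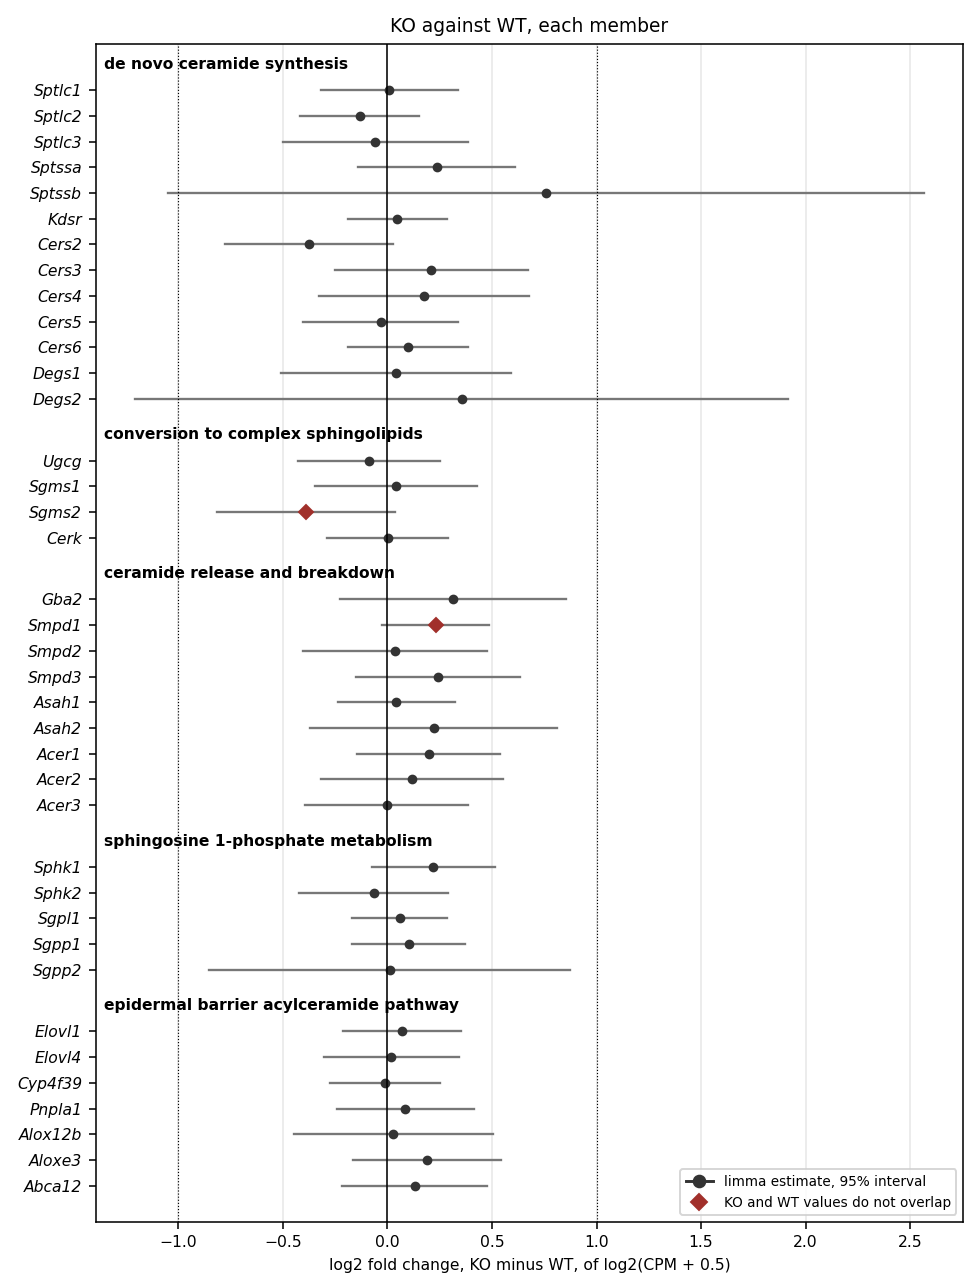
Log2 fold change (KO minus WT, of log2(CPM + 0.5)) of each of the 38 genes with its 95% limma interval, ordered by role, with dotted lines at 2-fold in either direction. All 38 intervals include 0, Sptssb and Degs2 have the widest, and the red diamonds mark Sgms2 and Smpd1, whose KO and WT values did not overlap.

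Levels spanned a wide range. On the CPM scale the members with the highest mean were Elovl4, the elongase of ultra-long fatty acids, Abca12, the transporter that loads barrier lipids into lamellar granules, and Sgpp1, a sphingosine 1-phosphate phosphatase. Divided by exon length, taken from an annotation that may differ from the one used in quantification, Elovl4 led with a mean of 323 CPM per kb over the 6 libraries, followed by Elovl1 with 139.6, the small subunit gene Sptssa with 121, the desaturase gene Degs1 with 74.7, Sgpp1 with 65.8 and Abca12 with 60.9 CPM per kb. The lowest was Sptssb with 0.846 CPM per kb. Elovl4 and Elovl1, both elongases of the acyl chain, were thus the most abundant members by length, ahead of every gene of the ceramide backbone.

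**Figure D2:**
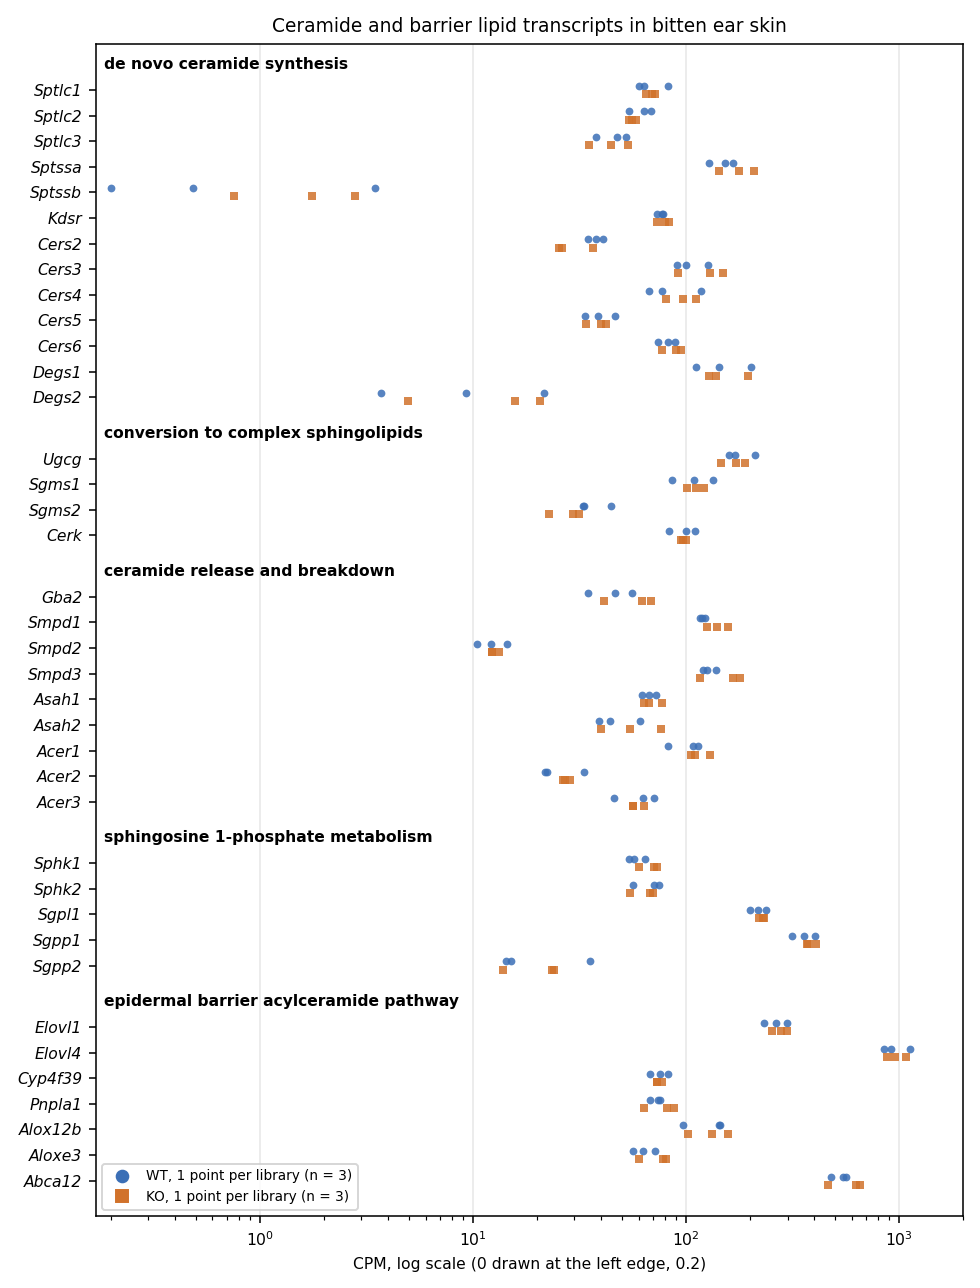
CPM (log axis) of the 38 genes in each of the 3 WT and 3 KO libraries, 1 point per library, grouped by role, with the value of 0 drawn at the left edge. WT and KO points interleave for all genes but Sgms2 and Smpd1, Elovl4 lies highest (849 to 1123 CPM) and Sptssb lowest (0 to 3.46 CPM).

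The sequence just upstream of the genes is a property that the choice of members did not use, and it differed among them. In the RefSeq promoter table (GRCm38.p6), 35 of the 38 members had an entry, and for 33 the entry began at the gene start of the deposited table. The letters GGGCGG, the GC box bound by Sp family factors, were found on either strand within the 250 bases before the start in 21 of these 33 members, against 32.7% of 32851 windows of all genes. The median GC content of the windows was 64.8% for the members and 52.4% for all windows. By role, a GC box was found in 9 of 12 genes of ceramide synthesis, 2 of 3 of conversion, 4 of 7 of release and breakdown, 3 of 5 of sphingosine 1-phosphate metabolism and 3 of 6 of the epidermal barrier branch, and the roles were not tested against each other. A match is a description of the letters and no evidence of binding, and the GC box count was not adjusted for GC content. The 32851 comparison windows were not limited to the genes tested or to a single window per gene, while the member windows were. The shares and the GC contents were therefore not compared like for like.

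The 5 windows printed here are those of the most abundant elongase, of the abundant small subunit of serine palmitoyltransferase, of the 1 member whose KO values all lay above WT, and of a transporter and a ceramide synthase of the keratinocyte branch that had neither motif. They run from 5′ to 3′ on the strand of the gene and end at the base before its start, and capitals mark GC boxes (GGGCGG or its reverse complement) and CCAAT boxes (CCAAT or its reverse complement). Elovl4 (chr9:83806306-83806555, minus strand) held a pair of overlapping GC boxes next to the start. Smpd1 (chr7:105554110-105554359, plus strand) held 4 GC boxes and 1 CCAAT box. Sptssa (chr12:54656573-54656822, minus strand) held 1 GC box and 2 CCAAT boxes. Abca12 (chr1:71414911-71415160, minus strand) and Cers3 (chr7:66743254-66743503, plus strand) held neither, with a GC content of 53.2% and 49.6% against 69.6% for Elovl4.
Elovl4: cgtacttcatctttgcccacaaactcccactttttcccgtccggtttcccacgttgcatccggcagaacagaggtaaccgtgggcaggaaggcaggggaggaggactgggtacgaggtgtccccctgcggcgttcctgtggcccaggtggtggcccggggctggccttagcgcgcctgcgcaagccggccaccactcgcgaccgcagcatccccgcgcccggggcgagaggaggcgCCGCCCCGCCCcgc
Smpd1: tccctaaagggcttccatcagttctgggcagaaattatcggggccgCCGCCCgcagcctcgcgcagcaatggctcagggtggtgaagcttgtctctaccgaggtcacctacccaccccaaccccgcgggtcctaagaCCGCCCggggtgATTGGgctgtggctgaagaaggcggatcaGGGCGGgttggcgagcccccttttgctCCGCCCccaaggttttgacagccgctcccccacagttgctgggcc
Sptssa: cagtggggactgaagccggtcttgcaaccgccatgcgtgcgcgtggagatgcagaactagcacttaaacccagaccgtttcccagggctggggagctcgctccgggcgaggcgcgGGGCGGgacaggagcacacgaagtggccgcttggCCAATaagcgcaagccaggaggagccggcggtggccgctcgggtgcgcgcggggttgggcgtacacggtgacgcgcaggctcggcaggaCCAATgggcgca
Abca12: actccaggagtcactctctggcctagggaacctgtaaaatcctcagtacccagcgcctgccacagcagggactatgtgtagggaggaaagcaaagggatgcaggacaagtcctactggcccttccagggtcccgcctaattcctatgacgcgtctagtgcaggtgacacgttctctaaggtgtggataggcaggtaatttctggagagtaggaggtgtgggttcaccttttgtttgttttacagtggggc
Cers3: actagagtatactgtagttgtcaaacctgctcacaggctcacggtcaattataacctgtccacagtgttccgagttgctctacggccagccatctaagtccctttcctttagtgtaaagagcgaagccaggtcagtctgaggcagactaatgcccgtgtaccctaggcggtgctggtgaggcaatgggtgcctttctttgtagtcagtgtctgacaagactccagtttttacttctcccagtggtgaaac

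Other motifs were less frequent in the member windows than the GC box. CCAAT was found in 9 of 33 windows (33.8% of all windows), TATAAA in 1, that of Sphk1 (12.4% of all), the AP-1 letters TGANTCA in 2, those of Acer3 and Asah2 (6.75% of all), and the STAT letters TTCNNNGAA in 2, those of Kdsr and Asah2 (7.02% of all). The C/EBP letters TTNCNNAA were found in 7 windows (36.8% of all), and the grainyhead letters AACNNGTT in 0 (3.64% of all). Both strands were searched for each, and the comparison windows were the same unlike set.

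De novo synthesis was described by 13 genes, of which 9 had a log2 fold change above 0 and 4 below (median 0.048), with 0 past the unadjusted threshold. Their summed level was 918 ± 128 CPM (SD, n = 3) in WT and 969 ± 92.4 CPM in KO. Serine palmitoyltransferase takes the first and committed step. Its common subunit gene Sptlc1 had a log2 fold change of 0.0095 (95% interval −0.32 to 0.34) and its catalytic subunit gene Sptlc3 one of −0.057 (−0.50 to 0.38). Sptlc2, the other catalytic subunit, read 68.3, 63.5 and 54.1 CPM in WT mice and 54.2, 58.3 and 56.1 CPM in KO, a log2 fold change of −0.13 ± 0.12 (SE). The KO values all fell inside the WT range.

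The small subunits of the same enzyme set which acyl-CoA it takes up. Sptssa ranged from 128 to 166 CPM in WT mice and from 143 to 209 CPM in KO (log2 fold change 0.24, 95% interval −0.14 to 0.61). Sptssb (chromosome 3, 69819539 to 69859894), which favours longer chains, read 0.484, 0 and 3.46 CPM in WT mice and 0.759, 2.80 and 1.76 CPM in KO. WT 3 was the highest of the 6 and the other WT libraries the lowest, so the groups overlapped fully. These values correspond to 23 reads over the WT and 21 over the KO libraries, a ratio per depth of 1.02 with an exact 95% interval from 0.536 to 1.92 that covers counting error only. The fitted log2 fold change of 0.76 ± 0.78 (SE) depends on the constant added before the logarithm at this level.

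Kdsr, the reductase of the next step, was the steadiest of the synthesis genes, with 73.1 to 78.3 CPM in WT mice and 73.4 to 83.1 CPM in KO. Its log2 fold change was 0.048 (95% interval −0.19 to 0.29).

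Ceramide synthases attach the acyl chain, each with its own preference for chain length. Cers2 (chromosome 3, 95315190 to 95323599), which handles very long chains in many tissues, read 37.8, 40.9 and 34.6 CPM in WT mice and 26.1, 36.7 and 25.3 CPM in KO. KO 1 and KO 3 lay below every WT library, and KO 2 lay within the WT range. The log2 fold change was −0.38 ± 0.17 (SE, 95% interval −0.78 to 0.029), and it did not pass the threshold. Without KO 2 it was −0.54 ± 0.15 (SE), past the unadjusted threshold but with a limma adjusted p = 0.998. Cers2 overlaps Setdb1 on the opposite strand, which read between 40.2 and 45.6 CPM in all 6 libraries. Whether reads were counted by strand was not given, and the part of overlapping reads was not tested.

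Cers3, the synthase of ultra-long chains that acylceramides require, ranged from 90.7 to 126 CPM in WT mice and from 91.9 to 149 CPM in KO (log2 fold change 0.21, 95% interval −0.25 to 0.67). Cers4 ranged from 67.3 to 117 CPM in WT mice and from 80.5 to 112 CPM in KO (0.17, −0.33 to 0.68). Cers5 and Cers6, both synthases of shorter chains, had log2 fold changes of −0.033 and 0.10. None of the 5 synthase genes passed the threshold.

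The desaturases close the pathway. Degs1, which introduces the double bond of ordinary ceramide, ranged from 111 to 201 CPM in WT mice and from 129 to 195 CPM in KO (log2 fold change 0.042, 95% interval −0.51 to 0.59). Degs2 (chromosome 12, 108686792 to 108702306), which also hydroxylates and so makes the phytoceramides of skin, read 21.5, 9.29 and 3.70 CPM in WT mice and 15.8, 4.97 and 20.7 CPM in KO. Its highest library was 5.80 times its lowest, the largest ratio among the 37 members without a 0 value, and the low libraries were WT 3 and KO 2. The log2 fold change of 0.35 ± 0.67 (SE) was smaller than its error. Degs2 overlaps Evl on the opposite strand, which read highest where Degs2 read lowest, with 13.4 CPM for WT 3, 9.04 CPM for KO 2 and at most 6.36 CPM for the other libraries.

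Conversion to complex sphingolipids was described by 4 genes, 2 above 0 and 2 below (median −0.043), with summed levels of 424 ± 23.4 CPM (SD, n = 3) in WT and 405 ± 20.7 CPM in KO. Sgms2 (chromosome 3, 131318986 to 131344923), the sphingomyelin synthase of the plasma membrane, read 44.3, 33.2 and 32.8 CPM in WT mice and 22.8, 31.7 and 29.4 CPM in KO. Every KO library lay below every WT library, but the gap between 31.7 and 32.8 CPM was narrow and WT 1 and KO 1 made most of the difference. The log2 fold change was −0.39 ± 0.18 (SE, 95% interval −0.82 to 0.037). Sgms1, the synthase of the Golgi, was the more abundant by length and differed by 0.042 (−0.35 to 0.43).

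Ugcg makes glucosylceramide, the form in which barrier ceramides are stored before secretion. It read 212, 169 and 159 CPM in WT mice and 189, 145 and 172 CPM in KO, with a log2 fold change of −0.087 ± 0.15 (SE) and groups that overlapped. Cerk, the ceramide kinase, had the smallest difference of all members, 0.0013 on the log2 scale (95% interval −0.29 to 0.29).

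Release and breakdown of ceramide was described by 9 genes. Of these, 8 had a log2 fold change above 0, 1 lay below, and the median was 0.20. Their summed level was 608 ± 49.9 CPM (SD, n = 3) in WT and 693 ± 74.6 CPM in KO, a ratio of 1.14. The sums were 552, 647 and 624 CPM in WT mice and 731, 607 and 741 CPM in KO, so that KO 2 lay inside the WT range. None of the 9 passed the unadjusted threshold, and WT 1 was the lowest library for 5 of them. Without WT 1 the median was 0.057, below those of de novo synthesis (0.14), sphingosine 1-phosphate metabolism (0.12) and the barrier branch (0.11), and with the keratinocyte covariate it was 0.099.

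Smpd1 (chromosome 7, 105554360 to 105558389), the lysosomal acid sphingomyelinase that frees ceramide from sphingomyelin, read 123, 119 and 116 CPM in WT mice and 157, 126 and 140.1 CPM in KO. Every KO library was above every WT library, and the WT values were close together (119 ± 3.66 CPM (SD, n = 3) against 141 ± 15.7 CPM). The log2 fold change was 0.23 ± 0.11 (SE, 95% interval −0.025 to 0.49). Smpd3, the neutral sphingomyelinase, read 126, 139 and 119.9 CPM in WT mice and 180.1, 116 and 167 CPM in KO, with KO 2 below all WT libraries (log2 fold change 0.24 ± 0.17 (SE)). Smpd2, a further neutral sphingomyelinase, differed by 0.038 (−0.40 to 0.48).

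Gba2, a glucosylceramidase outside the lysosome, read 34.9, 46.7 and 55.6 CPM in WT mice and 61.9, 41.2 and 68.5 CPM in KO. KO 1 and KO 3 were the highest libraries and KO 2 lay within the WT range (log2 fold change 0.31 ± 0.23 (SE)). Gba2 overlaps Creb3 and Rgp1 on the opposite strand.

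Ceramidases cut ceramide to sphingosine. Asah2, the neutral ceramidase, read 39.0, 60.6 and 44.0 CPM in WT mice and 54.6, 39.8 and 76.1 CPM in KO, a ratio of 1.95 between the highest and the lowest library and a log2 fold change of 0.22 ± 0.26 (SE). Acer1, the alkaline ceramidase of the epidermis, ranged from 82.5 to 114 CPM in WT mice and from 106 to 129.6 CPM in KO (0.20, 95% interval −0.15 to 0.54). Acid ceramidase, encoded by Asah1, differed by 0.043 (−0.24 to 0.32), Acer2 by 0.12 (−0.32 to 0.55) and Acer3 by −0.0039 (−0.40 to 0.39).

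Sphingosine 1-phosphate metabolism was described by 5 genes, 4 above 0 and 1 below (median 0.058), with summed levels of 725 ± 29.0 CPM (SD, n = 3) in WT and 764 ± 24.3 CPM in KO. Sphk1, a kinase that makes sphingosine 1-phosphate, ranged from 54.0 to 64.5 CPM in WT mice and from 60.5 to 73.4 CPM in KO, with a log2 fold change of 0.22 (95% interval −0.074 to 0.51). Sphk2, the other kinase, differed by −0.066 (−0.42 to 0.29). Sphk2 overlaps Dbp on the opposite strand. Both genes were lowest in WT 1 and KO 1, at 56.2 and 54.4 CPM for Sphk2 and 65.8 and 67.9 CPM for Dbp. The part of overlapping reads was not tested. Sgpl1, the lyase that destroys the lipid for good, was held between 201 and 237 CPM in all 6 libraries (0.058, −0.17 to 0.29).

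Of the phosphatases that return sphingosine 1-phosphate to sphingosine, Sgpp1 read 314, 404 and 359 CPM in WT mice and 372, 372 and 407 CPM in KO, with a log2 fold change of 0.10 ± 0.12 (SE). Sgpp2 read 35.3, 14.4 and 15.1 CPM in WT mice and 23.6, 24.2 and 13.8 CPM in KO. WT 1 was 2.56 times KO 3, and the log2 fold change was 0.011 with an interval from −0.85 to 0.87. Sgpp2 overlaps Farsb on the opposite strand, which read between 26.4 and 33.2 CPM.

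The acylceramide branch of the epidermal barrier was described by 7 genes, 6 above 0 and 1 below (median 0.068), with 0 past the unadjusted threshold. Its summed level was 2290, 2139 and 1864 CPM in WT mice and 2439, 1894 and 2238 CPM in KO. KO 1 and WT 1 were the highest and WT 3 and KO 2 the lowest, so the spread within each genotype (SD of 216 CPM in WT mice and 276 CPM in KO) was larger than the difference of the means (2098 CPM in WT mice and 2190.2 CPM in KO). Of the 7 genes, 4 were highest in KO 1, 4 were lowest in WT 3 and 2 were lowest in KO 2.

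Elovl4 (chromosome 9, 83778692 to 83806305) extends fatty acids to the ultra-long chains of acylceramide and read 1123, 919 and 849 CPM in WT mice and 1081, 876 and 962 CPM in KO. The groups overlapped, and the log2 fold change of 0.019 had an interval from −0.30 to 0.34. Elovl1, which supplies the chain that Elovl4 extends, read 265, 298 and 232 CPM in WT mice and 297, 253 and 281 CPM in KO (log2 fold change 0.068, 95% interval −0.21 to 0.35). Elovl1 overlaps Cdc20 on the opposite strand, which was between 17.8 and 46.9 CPM. Cyp4f39, the mouse enzyme that hydroxylates the far end of the chain, read 82.8, 75.9 and 67.6 CPM in WT mice and 77.5, 72.9 and 73.2 CPM in KO, and differed by −0.013 (−0.28 to 0.25).

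Pnpla1, the transacylase that attaches linoleate, read 74.3, 68.1 and 75.7 CPM in WT mice and 88.3, 63.6 and 81.7 CPM in KO (log2 fold change 0.086, 95% interval −0.24 to 0.42). KO 2 was the lowest library and KO 1 the highest. Abca12 (chromosome 1, 71243090 to 71414910) read 544, 564 and 479 CPM in WT mice and 657, 466 and 629.6 CPM in KO. KO 1 was again the highest library and KO 2 the lowest. KO 1 and KO 3 lay above all WT libraries and KO 2 below them, with a log2 fold change of 0.13 (−0.22 to 0.48).

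The lipoxygenases oxidise the linoleate of acylceramide so that it can be joined to the cornified envelope. Alox12b, the first of the pair, read 145, 143 and 97.3 CPM in WT mice and 158, 102 and 132 CPM in KO, with WT 3 and KO 2 low (log2 fold change 0.029, 95% interval −0.45 to 0.50). Aloxe3, which acts on its product, read 56.6, 71.6 and 63.1 CPM in WT mice and 80.7, 60.0 and 78.4 CPM in KO (0.19, −0.17 to 0.54). KO 1 and KO 3 were the highest libraries for Aloxe3 and KO 2 lay inside the WT range.

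Within each enzyme family, the share of each gene in the family's summed CPM per kb was compared, and no share separated the genotypes. Cers3 was the largest of the 5 ceramide synthases, with 38.5 ± 2.13% (SD, n = 3) in WT and 43.4 ± 8.71% in KO. Cers2 held 20.5 ± 2.27% in WT and 15.3 ± 3.76% in KO, and its KO 2 value of 19.6% lay inside the WT range of 18.0% to 22.5%. Sptlc1 made up 51.0 ± 3.72% of the large subunits of serine palmitoyltransferase in WT and 52.5 ± 1.75% in KO, and Sptlc3 31.2 ± 3.47% and 30.7 ± 3.81%. Acer1 dominated the alkaline ceramidases with 78.6 ± 2.73% in WT and 80.2 ± 2.32% in KO. Sgms1 made up 78.5 ± 6.57% of the sphingomyelin synthases in WT and 83.5 ± 1.71% in KO, and Sphk1 48.3 ± 2.91% and 53.3 ± 5.07% of the sphingosine kinases. The minor partners were Degs2, with 3.10% to 12.5% of the desaturases over the 6 libraries, and Sptssb, with at most 1.96% of the small subunits.

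**Figure D3:**
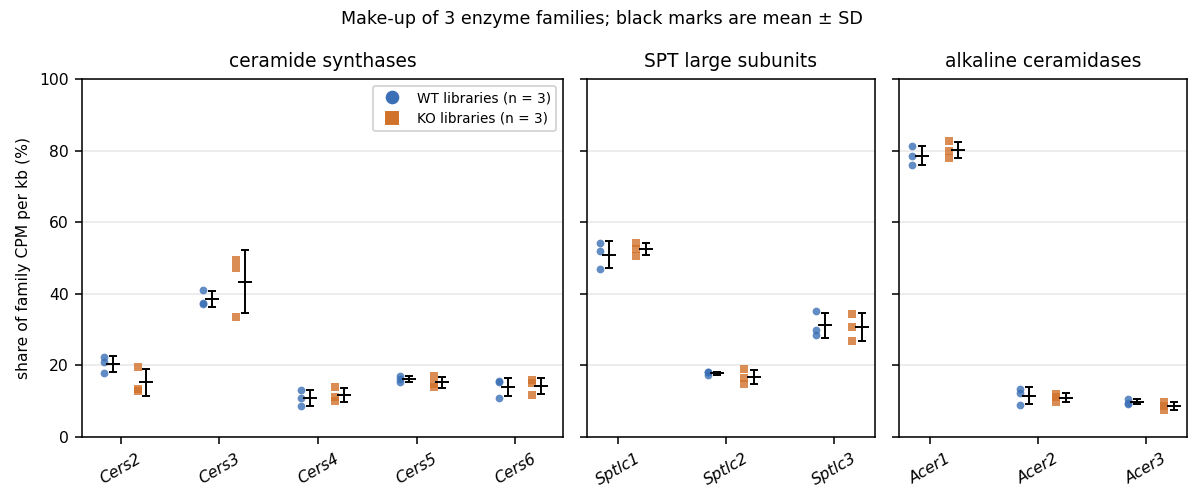
Share (%) of each gene in the summed CPM per kb of its family, for ceramide synthases, the large subunits of serine palmitoyltransferase (SPT) and alkaline ceramidases, with 1 point per library and the mean ± SD of each genotype (n = 3) beside it. Cers3 (38.5% in WT, 43.4% in KO), Sptlc1 and Acer1 lead their families, and the WT and KO points overlap for all 11 genes.

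Many members varied among libraries of the same genotype. WT 1 was the highest library for 12 of the 38 members and the lowest for 12, WT 3 was the lowest for 13, and KO 1 was the highest for 9. In de novo synthesis WT 1 was the highest for 6 of 13 genes and WT 3 the lowest for 7, while in breakdown WT 1 was the lowest for 5 of 9 and the highest for 0. KO 2 lay apart from KO 1 and KO 3, and nearer to WT or below it, for Cers2, Gba2, Smpd3, Abca12, Pnpla1 and Aloxe3, which were picked after their values had been seen. Without KO 2 the number of members with an unadjusted p below 0.05 went from 0 to 6 (Sptssa, Cers2, Cers3, Gba2, Smpd1 and Smpd3), where 4.10% of all genes passed, and 12 members had groups that did not overlap, where 19.2% of all genes did. The lowest adjusted p over these 38 was then 0.998. KO 2 had the lowest value of the differentiated keratinocyte list, 9.10 on the log2 scale, and the part of that list in the counts was not tested beyond the covariate given above.

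**Figure D4:**
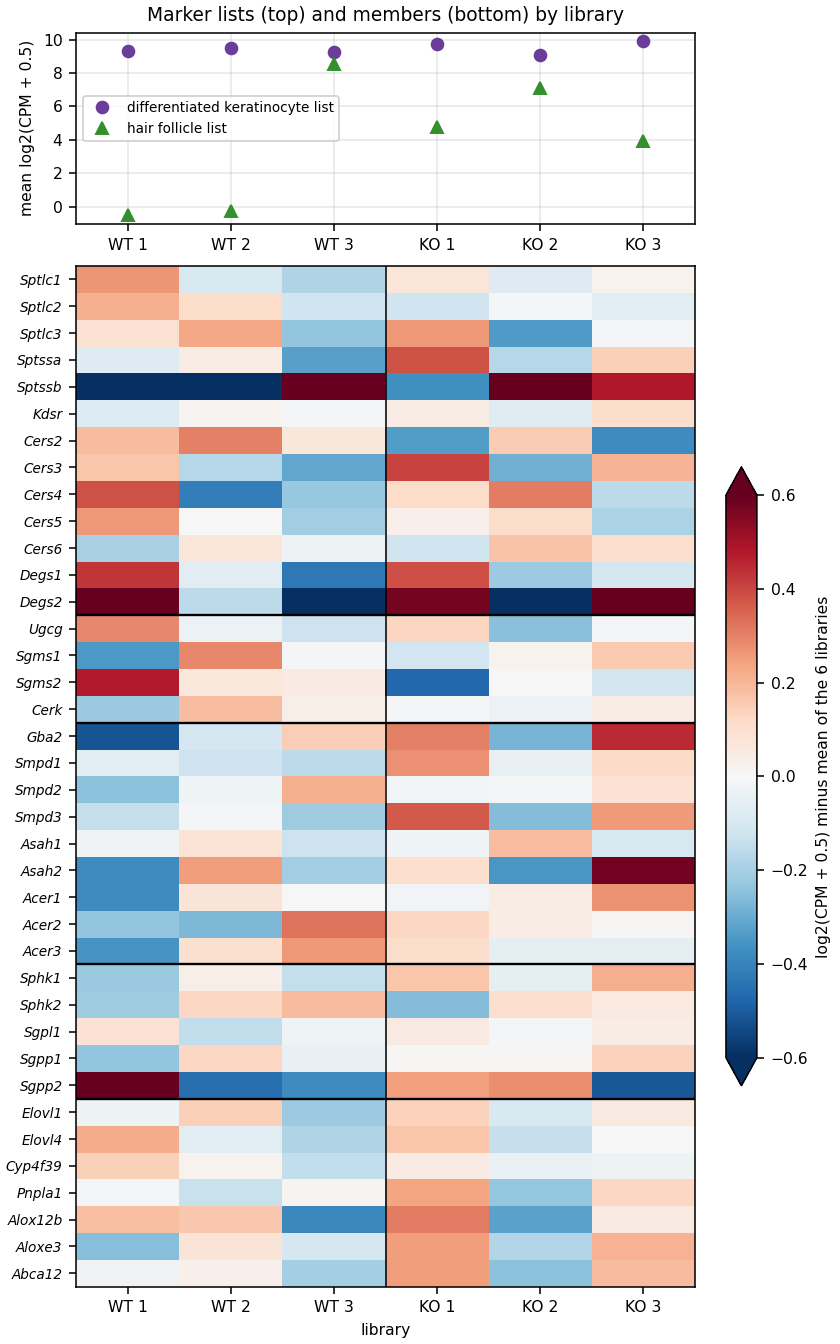
Upper panel, mean log2(CPM + 0.5) of the differentiated keratinocyte and hair follicle marker lists in each library. Lower panel, log2(CPM + 0.5) of each of the 38 genes minus its mean over the 6 libraries. Lines divide the roles in the order of the text, and colours are saturated beyond 0.6. KO 1 is red and KO 2 blue for most barrier genes, and WT 1 is the highest library for 6 of 13 synthesis genes.

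Hair follicle markers moved with a few members, which were picked after their values had been seen. The mean log2(CPM + 0.5) of the 21 follicle genes was −0.51, −0.24 and 8.56 in WT 1, WT 2 and WT 3 and 4.77, 7.08 and 3.91 in KO 1, KO 2 and KO 3. All 21 had a log2 fold change above 0 (median 2.53), and 0 passed an unadjusted p below 0.05. Degs2 was lowest in WT 3 and KO 2, the libraries with the highest follicle scores, at 3.70 and 4.97 CPM. The same libraries had the lowest differentiated keratinocyte scores (9.25 and 9.10), so the marker lists cannot be told apart there. Sptlc3 was also lower there, at 37.8 and 35.0 CPM, than in the other 4 libraries (44.4 to 53.4 CPM). Sptssb was highest there, at 3.46 and 2.80 CPM. With the follicle score as a covariate, Degs2 had a log2 fold change of 1.0 ± 0.43 (SE) and Sptssa one of 0.35 ± 0.15 (SE), with limma adjusted p of 0.787 and 0.778, and these were the 2 members past the unadjusted threshold, where 6.17% of all genes passed. Without WT 3 the log2 fold change of Degs2 was −0.25, and that of Sptssb was 1.59, past the unadjusted threshold but with a limma adjusted p of 0.925. With the keratinocyte score as the covariate instead, the log2 fold change of Degs2 was −0.19. The part of follicle RNA in these values was not tested otherwise.

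**Figure D5:**
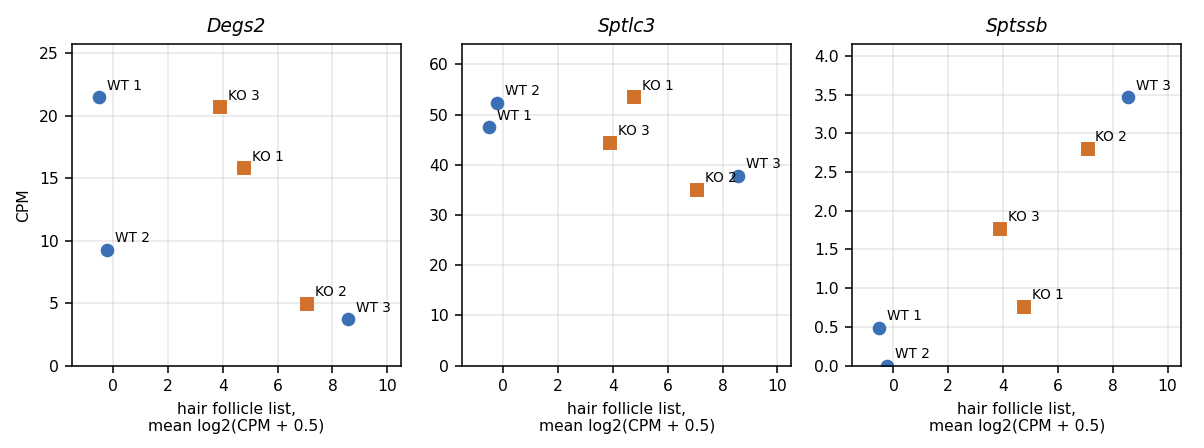
CPM of Degs2, Sptlc3 and Sptssb against the mean log2(CPM + 0.5) of 21 hair follicle genes, 1 labelled point per library. WT 3 and KO 2, at the right, have the lowest Degs2 (3.70 and 4.97 CPM) and Sptlc3 and the highest Sptssb (3.46 and 2.80 CPM). They also had the lowest differentiated keratinocyte scores (9.25 and 9.10), which are not drawn here. The panels hold 6 libraries each, with no line fitted.

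A list of other genes of ceramide and barrier lipid metabolism was read in the same fit. Of 41 listed, 39 were in the table and 38 were tested, with 19 log2 fold changes above 0 and 19 below (median 0.0040). None passed the adjusted threshold and 1 passed the unadjusted one, where 2.88% of all genes did. That gene was Hacd1, a dehydratase of very long chain fatty acids, with 7.50, 6.31 and 3.46 CPM in WT mice and 2.12, 3.36 and 2.94 CPM in KO. Its groups did not overlap, with WT 3 and KO 2 close together, and the log2 fold change was −0.88 ± 0.35 (SE, limma adjusted p = 0.998). The count of 1 became 0 without WT 1, WT 2, KO 1 or KO 3. It became 2 without WT 3, where 4.97% of all genes passed, and 3 without KO 2, where 4.10% did. Groups that did not overlap were found for 3 of the 38 tested, where 7.84% of all genes tested had such groups. These were Hacd1, the elongase gene Elovl5 (log2 fold change −0.21) and the ceramide transfer protein gene Col4a3bp (−0.23), all lower in KO. The largest negative values after Hacd1 belonged to Naaa, an amidase of N-acylethanolamines (log2 fold change −0.43), and to Galc, the lysosomal galactosylceramidase (−0.41). The largest positive values belonged to Smpdl3b, a relative of acid sphingomyelinase (0.32), and S1pr5, a receptor of sphingosine 1-phosphate (0.26), and neither passed the unadjusted threshold.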

How the data were processed

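Total RNA of 1 ear punch per mouse was sequenced for 3 WT and 3 KO mice, and groups were taken from the genotype in the labels. Per the study's methods, the authors aligned reads to mm10 with STAR 2.7.3a, quantified them to transcripts in Partek (Ensembl release 100 is named), summed them per gene, divided by the library total and added 0.0001. The deposited values are therefore CPM, and each column summed to 1000000 once the offset was removed. Removing the offset, log2(CPM + 0.5) was fitted with limma 3.58.1 in R 4.3.3 (empirical Bayes with trend, two-sided, no covariate) for the genes whose mean reached 1 CPM, with Benjamini-Hochberg adjustment over all 14306. The table does not state strand use or totals. Depth was read from the step between low CPM values, and 91.9% to 93.0% of the low values lay within 0.1 of a whole read. Values per kb used merged exons of GENCODE M21 transcripts, whose lengths may differ from those used by the authors, so the order by length and the family shares depend on them. Fold changes are on the log2(CPM + 0.5) scale, and those of low genes depend on the constant. The fit was tested on simulated data.

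The members and marker lists were chosen with earlier results of these data known. Values in every library were given for members whose groups did not overlap, the 4 largest log2 fold changes in each direction, the 3 highest mean CPM, the 4 largest ratios of highest to lowest library and the 7 barrier genes. Each of the 6 libraries came from 1 punch of 1 mouse, and neither the labels nor the methods name a batch. The p-values therefore rest on the spread among these libraries, in which mouse, punch and library preparation cannot be told apart. With 3 mice against 3, 0.1 is the smallest two-sided p of an exact permutation test, so none was run. Tried instead were other pseudocounts (0.1 and 2), filters, scalings, limma settings, voom on the implied reads, marker scores as covariates, a replicate block and leaving out each library.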

Additional observations from a re-analysis of the deposited data

How the results depend on the processing

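Over 19 alternatives, 721 member values were recomputed, of which 653 kept their direction, 68 changed sign, and 0 passed an adjusted p of 0.05 (lowest 0.778). Of the 38 members, 16 kept their sign under every alternative, among them Cers2, Sgms2, Smpd1, Smpd3, Gba2 and Sptssa. The number of members past an unadjusted p of 0.05, 0 as reported, was 2 with the hair follicle covariate, where 6.17% of all genes passed. It ranged from 0 to 6 when 1 library was left out. It was 6 without KO 2 (4.10% of all genes), and 1 each without WT 1 (Cers4, 4.03%) and WT 3 (Sptssb, 4.97%). The number whose groups did not overlap, 2 as reported, was 1 with median-of-ratios rescaling, where 7.96% of all genes had such groups. It ranged from 2 to 12 without 1 library, where 15.0% to 20.3% of all genes had such groups. The counts were 12 without KO 2, 7 without WT 3, 6 without WT 1, 4 without WT 2 and 3 without KO 1. Members with a log2 fold change above 0, 29 as reported, were 19 with the keratinocyte covariate and 23 to 31 without 1 library. The scalings left 31, 32 and 31 above 0 (median-of-ratios, quantile and a total without Rn45s), where 49.3%, 51.9% and 47.3% of all genes lay above 0. The 1 other ceramide gene past the unadjusted threshold became 0 with a filter at 5 CPM, with voom, with the replicate block and with the keratinocyte covariate. Without 1 library the count was 0 to 3, and 3 was reached without KO 2, where 4.10% of all genes passed.

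Neither the labels nor the methods say whether same-numbered mice were paired. Deviations from the group means correlated at 0.38, −0.31 and −0.22 between same-numbered libraries. WT 1 with KO 1, WT 2 with KO 3 and WT 3 with KO 2 correlated best (0.38, 0.30 and 0.45). Deviations within a group depend on one another and may follow tissue make-up. The correlations therefore cannot decide whether the replicate number paired the mice. With the number as a replicate block, 1 member passed the unadjusted threshold (Cers2, limma adjusted p = 0.976), where 4.13% of all genes did, 0 passed the adjusted one, and the other ceramide genes gave 0. Adipoq stayed far lower in KO but missed the adjusted threshold with voom (log2 fold change −7.88) and without WT 2 (−5.94).

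These log2 fold changes changed sign, most of them near 0 as reported but also that of Degs2 (0.35), Asah2 (0.22), Abca12 (0.13) and Acer2 (0.12). Median-of-ratios rescaling gave 0.026 for Acer3 and 0.016 for Cyp4f39, quantile normalization gave 0.016 for Cers5, 0.027 for Acer3 and 0.018 for Cyp4f39, a total without Rn45s gave 0.016 for Acer3 and 0.0066 for Cyp4f39, and voom gave −0.0037 for Cerk. The keratinocyte covariate gave −0.020 for Sptlc1, 0.021 for Cers5, −0.044 for Degs1, −0.19 for Degs2, −0.0018 for Sgms1, −0.033 for Cerk, −0.029 for Asah2, −0.0043 for Elovl1, −0.034 for Elovl4, −0.0097 for Pnpla1, −0.13 for Alox12b and −0.0091 for Abca12. The hair follicle covariate gave 0.082 for Sptlc3, 0.039 for Cers5, 0.0061 for Ugcg, −0.010 for Cerk, −0.052 for Smpd2, −0.039 for Acer2 and 0.051 for Cyp4f39. Leaving out 1 library gave ranges of −0.15 to 0.089 for Cers5, −0.17 to 0.036 for Ugcg, −0.12 to 0.20 for Sgms1, −0.11 to 0.094 for Cerk, −0.075 to 0.15 for Smpd2, −0.089 to 0.056 for Cyp4f39, −0.079 to 0.14 for Sptlc1, −0.20 to 0.099 for Sptlc3, −0.18 to 0.13 for Acer3, −0.0019 to 0.12 for Sgpl1, −0.21 to 0.42 for Sgpp2, −0.067 to 0.13 for Elovl4, −0.16 to 0.27 for Degs1, −0.25 to 0.95 for Degs2, −0.039 to 0.10 for Asah1, −0.19 to 0.047 for Sphk2, −0.024 to 0.16 for Elovl1, −0.16 to 0.20 for Alox12b, −0.011 to 0.22 for Pnpla1 and −0.012 to 0.45 for Asah2. The causes were not tested. Each group held 3 mice, and Sptssb rested on 44 reads in all.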
